A study of Mus musculus with 2 samples.

Results

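The receptors through which hormones and nerves drive secretion by the pancreatic acinar cell were examined in whole mouse pancreas, together with the G protein alpha subunits that pass on the calcium branch of their signal. The 8 genes were taken by symbol, not by level: the cholecystokinin receptors Cckar and Cckbr, the muscarinic acetylcholine receptors Chrm1 and Chrm3, the secretin receptor Sctr, the vasoactive intestinal peptide receptor Vipr1, and the alpha subunits Gnaq and Gna11. All 8 were found among the 43346 genes of the deposited tables. Polyadenylated RNA came from the pancreas of 1 adult female mouse of the inbred strain C57BL/6J, 10 weeks old, and was sequenced as 2 technical replicate libraries. Per the labels replicate 2 was added after the first, so library and time of preparation cannot be told apart. The labels name no treatment and no altered allele, so the libraries form 1 group and there is no comparison between conditions. An SD over these libraries is technical and says nothing of the spread between animals.

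Acinar cells make digestive enzymes, store them in granules and release them when a secretagogue binds a receptor of the G protein-coupled kind. Receptors for cholecystokinin and acetylcholine act mainly through alpha subunits of the Gq class, which switch on phospholipase C beta and release calcium from the endoplasmic reticulum. Receptors for secretin and vasoactive intestinal peptide act mainly through Gs, which raises cyclic AMP. In rodents, Cckar and the muscarinic receptors are known as the main calcium-raising secretagogue receptors of these cells, and the secretin receptor is best known from duct cells, which secrete bicarbonate.

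The expected counts, which are estimates of the reads from each gene, summed to 9441559 in replicate 1 and 9797569 in replicate 2. Levels are given as TPM, the share of a gene among all transcripts scaled to a fixed total after correction of the count for transcript length. Bounds given with a count, a TPM or a ratio are exact 95% intervals that cover counting error only, and 3 counts correspond to 0.318 CPM (counts scaled to the library total) in replicate 1 and 0.306 CPM in replicate 2. Of 13 acinar marker genes, 13 reached 1 TPM in both libraries, summing to 160838 TPM in replicate 1 and to 204278 in replicate 2. Amy2a5 made up 28162 and 24375 TPM of these sums. The deposited uncertainty of its count was large (posterior SD 218166 on 381171 counts and 173336 on 286732), so this part is poorly determined. Markers of other cells of the organ were present too: 10 of 12 duct markers reached 1 TPM in both libraries (summed level 266 and 265 TPM), as did 7 of 8 beta cell, 6 of 6 endothelial, 7 of 7 smooth muscle and pericyte and 4 of 9 neuron and glia markers. No stomach marker did, and 5 of the 6 had 0 counts in both libraries. Of 6 intestine markers 2 did, the highest level being 4.89 TPM in replicate 1 and 2.67 in replicate 2. Of 4 liver markers 1, Ttr, did, at 113 and 95.3 TPM. Alb stood at 0.61 and 0.56 TPM and Apoa1 at 0 and 0.15 TPM, and Cyp3a11 had 0 counts in both libraries. The cell that carries a receptor therefore cannot be told from these libraries, and in bulk tissue fewer cells of a type and less RNA per cell cannot be told apart.

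Cckar was the most abundant of the receptors. This receptor binds cholecystokinin, the gut hormone released after a meal, and the gene lies on chromosome 5 (53697776 to 53707705, minus strand, GRCm38). Its TPM was 47.9 in replicate 1 (45.2 to 50.8, from 1158 counts) and 31.2 in replicate 2 (28.9 to 33.7, from 653 counts), a mean of 39.6 ± 11.8 (SD, n = 2 technical libraries). In each library it lay far above the median of protein-coding genes (1.04 and 0.91 TPM), and its mean ranked 513 of 21474, at percentile 97.6. A single transcript is listed for Cckar, a coding one of 2929 bases in 5 exons, so all of its reads were assigned there.

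Cckbr, which binds gastrin as well as cholecystokinin and is best known from stomach and brain, was near the limit of counting. The gene lies on chromosome 7 (105425731 to 105470898, plus strand). It held 9 counts in replicate 1, or 0.44 TPM (0.201 to 0.835), and 1 count in replicate 2, or 0.06 TPM (0.00152 to 0.334), so these intervals overlapped. Within replicate 1 the TPM of Cckar was 109 times that of Cckbr (57.2 to 239), and within replicate 2 it was 521 times (93.1 to 20590). Cckar was far above Cckbr in either library, and the single Cckbr count in replicate 2 leaves the size of the gap there poorly determined.

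The muscarinic receptors were lower. Chrm3, the M3 receptor that couples to Gq in exocrine glands, lies on chromosome 13 (9875486 to 10360847, minus strand). Its TPM was 1.10 in replicate 1 (0.786 to 1.498, from 40 counts) and 1.18 in replicate 2 (0.822 to 1.64, from 35 counts), a mean of 1.14 ± 0.0566 (SD, n = 2). This mean lay at percentile 51.3 of protein-coding genes, whose median was 1.04 and 0.91 TPM. The long coding transcript of 4336 bases in 5 exons took 100% of the gene's TPM in replicate 1 and 91.5% in replicate 2, the remainder going to a single-exon transcript of 1770 bases that rested on 1.28 expected counts.

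Chrm1, the M1 receptor, is also Gq-coupled and best known from neurons. It lies on chromosome 19 (8663789 to 8683587, plus strand) and had the lowest mean of the 8 genes, 0.16 ± 0.0849 TPM (SD, n = 2). Replicate 1 held 12 counts or 0.22 TPM (0.114 to 0.384), and replicate 2 held 3 counts or 0.10 TPM (0.0206 to 0.292). The 12 counts were assigned to a transcript of 6271 bases and the 3 counts to one of 4159 bases that codes for a protein of the same length, with posterior SDs of 2.34 and 0.66 counts. The exons of Chrm1 overlap 329 bases of a gene on the other strand, Gm22820, which had 0 counts in both libraries. The TPM ratio of Chrm3 to Chrm1 was 5.0 in replicate 1 (2.57 to 10.5) and 11.8 in replicate 2 (3.72 to 59.97). The length used for Chrm1 was 6108 bases in replicate 1 and 4006 in replicate 2, a difference that these bounds leave out. The order M3 over M1 held in each library, while the size of the ratio was poorly determined. Of the other muscarinic receptors, Chrm2 stood at 0.96 and 0.55 TPM, Chrm4 at 0.09 and 0 TPM, and Chrm5 had 0 counts in both libraries.

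The receptors of the cyclic AMP branch were led by Vipr1, which binds vasoactive intestinal peptide and the related peptide PACAP. It lies on chromosome 9 (121642716 to 121672954, plus strand). Its TPM was 4.82 in replicate 1 (4.11 to 5.61, from 165 counts) and 2.90 in replicate 2 (2.35 to 3.54, from 96 counts), a mean of 3.86 ± 1.36 (SD, n = 2) at percentile 73.0 of protein-coding genes. The full coding transcript of 4902 bases in 13 exons took 80.2% of this TPM in replicate 1 and 91.4% in replicate 2. What was left went to a retained-intron transcript of 763 bases, which rested on 5 and 1.15 expected counts and gained TPM through its short length.

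Sctr, the secretin receptor, lies on chromosome 1 (120006894 to 120063536, plus strand) and was sparse. It held 6 counts or 0.41 TPM in replicate 1 (0.150 to 0.892) and 10 counts or 0.75 TPM in replicate 2 (0.360 to 1.38), a mean of 0.58 ± 0.240 TPM (SD, n = 2). The intervals overlapped, and neither library reached 1 TPM. All 6 counts of replicate 1 went to a coding transcript of 1819 bases, while the 10 of replicate 2 were divided as 4.26 and 5.74 between it and a coding transcript of 2012 bases. The posterior SD of this division was 2.45 counts, so the data do not resolve which form was present. The TPM of Sctr was 0.0851 times that of Vipr1 in replicate 1 (0.0308 to 0.189) and 0.259 times in replicate 2 (0.120 to 0.497), below it in each.

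Gnaq and Gna11 encode close relatives that receptors such as Cckar and Chrm3 use to switch on phospholipase C beta. Over their coding sequence 869 of 1080 aligned bases were the same (80.5%), the highest identity among the 4 family pairs here, and the longest run their transcripts share was 38 bases. The last 60 coding bases before the stop codon are printed 5′ to 3′ on the coding strand, because they encode the tail of the alpha subunit that meets the receptor. They show how alike the 4 mouse genes of the Gq class are, and a run of 38 bases shared by Gnaq and Gna11 lies within them. All lie in coding exons, on GRCm38: Gnaq at chr19:16383332-16383391 (plus strand), Gna11 at chr10:81530798-81530857 (minus strand), Gna14 at chr19:16609468-16609527 (plus strand) and Gna15 at chr10:81502882-81502941 (minus strand). Capitals mark bases that differ from Gnaq, of which there are 6 in Gna11, 14 in Gna14 and 25 in Gna15.
Gnaq: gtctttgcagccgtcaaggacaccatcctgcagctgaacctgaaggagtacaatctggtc
Gna11: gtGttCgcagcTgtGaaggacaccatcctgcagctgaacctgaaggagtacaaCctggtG
Gna14: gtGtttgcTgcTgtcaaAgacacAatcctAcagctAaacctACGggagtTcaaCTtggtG
Gna15: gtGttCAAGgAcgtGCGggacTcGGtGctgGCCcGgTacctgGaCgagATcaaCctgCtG

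In spite of this likeness, the deposited posterior SD of the gene count was 0 for Gnaq and Gna11 in both libraries, as for the 6 receptors, so no read was shared between genes in the deposited estimate. Gnaq lies on chromosome 19 (16132831 to 16387463, plus strand). Its TPM was 5.75 in replicate 1 (5.08 to 6.48, from 267 counts) and 4.79 in replicate 2 (4.11 to 5.55, from 177 counts), a mean of 5.27 ± 0.679 (SD, n = 2). The intervals of the libraries overlapped in TPM, while those of the unscaled counts did not (236 to 301 and 152 to 205). The coding transcript of Gnaq, of 5644 bases, took 96.5% and 87.7% of its TPM (5.55 and 4.20 TPM). A retained-intron transcript of 862 bases with 1.2 and 3.15 expected counts took the remainder.

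Gna11 lies on chromosome 10 (81528724 to 81545190, minus strand). Its TPM was 5.37 in replicate 1 (4.53 to 6.32, from 144 counts) and 9.27 in replicate 2 (8.07 to 10.6, from 216 counts), a mean of 7.32 ± 2.76 (SD, n = 2). Here the intervals did not overlap, and replicate 2 was the higher. The coding transcript of 3414 bases took 90.3% and 90.9% of this TPM, so the division among transcripts was nearly the same in both libraries.

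The balance of the alpha subunits differed between the libraries: they were level within counting error in replicate 1, and Gna11 was the higher in replicate 2. The TPM ratio of Gnaq to Gna11 was 1.07 in replicate 1 (0.871 to 1.32) and 0.517 in replicate 2 (0.421 to 0.633). In counts, Gnaq took 65.0% of the reads of the pair in replicate 1 (60.1 to 69.6%, exact Clopper-Pearson interval) and 45.04% in replicate 2 (40.05 to 50.1%), and these intervals did not overlap. Their sum moved less, at 11.1 and 14.1 TPM. The other genes of the Gq class added little: Gna14 stood at 1.14 and 1.07 TPM and Gna15 at 0.78 and 0.15 TPM, for a class sum of 13.04 and 15.3 TPM. Among all 16 alpha subunit genes Gna11 ranked 5 by mean TPM with 1.64% and 4.10% of the summed level, and Gnaq followed with 1.76% and 2.12%. Gnas, which encodes the Gs alpha subunit that Vipr1 and Sctr use, held 65.6% and 61.7% (214 and 139 TPM), followed by the Gi subunit gene Gnai2 at 62.1 and 40.7 TPM, by Gnao1 at 16.6 and 8.94 TPM and by Gnai3 at 8.31 and 8.41 TPM.

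**Figure D1:**
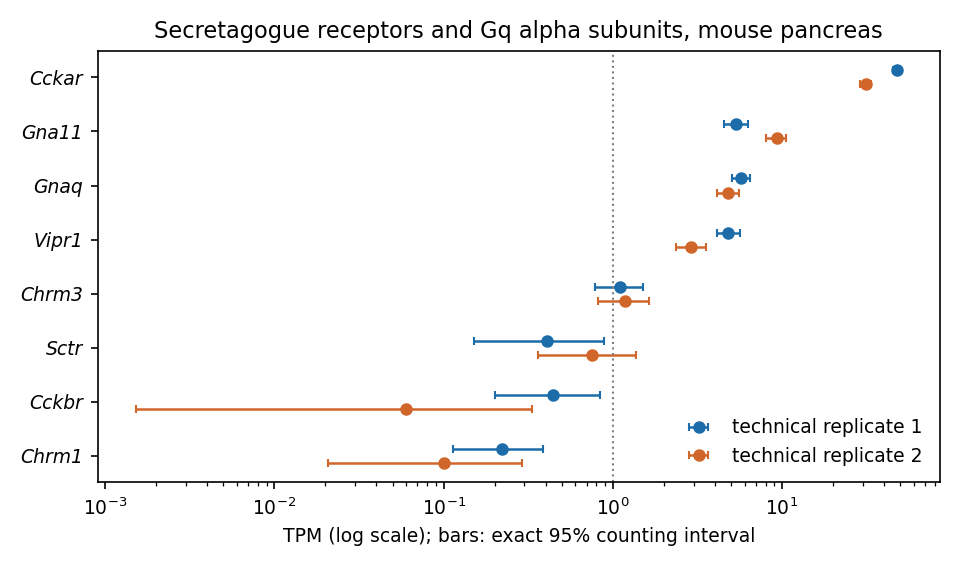
TPM (log axis) of the 8 genes in technical replicates 1 and 2, as points with exact 95% counting intervals, in order of mean TPM. Cckar stands alone at 47.9 and 31.2 TPM, the dotted line marks 1 TPM, and the intervals of Cckbr and Chrm1 in replicate 2 are wide because they rest on 1 and 3 counts.

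By mean TPM the order was Cckar, Gna11, Gnaq, Vipr1, Chrm3, Sctr, Cckbr and Chrm1. The ranges over the 2 libraries did not overlap between Cckar and Gna11, between Vipr1 and Chrm3, or between Chrm3 and Sctr. They overlapped between Gna11 and Gnaq, Gnaq and Vipr1, Sctr and Cckbr, and Cckbr and Chrm1, so these ranges do not resolve the order within these pairs. Gnaq lay above Vipr1 within each library (5.75 against 4.82 and 4.79 against 2.90 TPM), with counting intervals that overlapped in replicate 1 only. In the other pairs the order switched between the libraries. Of the 8 genes, 5 reached 1 TPM in both libraries, against 46.4% of protein-coding genes (9964 of 21474) and 23.8% of all genes. Of the 6 receptors 3 did: Cckar, Vipr1 and Chrm3. TPM is relative to all other transcripts, and without the mitochondrial genes and 5 other abundant genes the means became 68.5 for Cckar, 12.6 for Gna11, 9.12 for Gnaq, 6.69 for Vipr1, 1.97 for Chrm3, 1.001 for Sctr, 0.434 for Cckbr and 0.277 for Chrm1, in the same order. The deposited posterior mean TPM was 5.93 for Vipr1, 0.385 for Cckbr and 0.33 for Chrm1 as means of the 2 libraries, above the values given here. With it Gnaq had 5.43, so Vipr1 came before Gnaq in the order.

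The receptors were then placed among 58 receptor genes, made up of these 6, of their muscarinic and class B peptide hormone relatives, and of other receptors reported to act on the exocrine pancreas, its nerves or its vessels. Cckar ranked first in both libraries and took 41.0% and 36.2% of the TPM summed over the 58 genes. The next was Ednrb, an endothelin receptor, at 9.72 and 4.46 TPM, so that Cckar was 4.93 and 7.002 times the runner-up. Vipr1 ranked 5 by mean, behind Ednrb, the endothelial adrenomedullin and CGRP receptor gene Calcrl (5.50 and 4.04 TPM) and the insulin receptor gene Insr (5.27 and 3.04 TPM). Vipr1 was below these 3 in each library, though its library range overlapped those of all of them. It ranked 5 in replicate 1 and 7 in replicate 2, where Glp1r and Gipr were also above it.

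By mean TPM Chrm3 ranked 21 of 58 and Sctr 30, while Cckbr and Chrm1 ranked 36 and 41. Between Vipr1 and Chrm3 in this order by mean lay receptors best known from islets, vessels and nerves. Among them were Glp1r, the GLP-1 receptor gene (1.39 and 3.60 TPM), and Gipr, the GIP receptor gene (1.90 and 3.08 TPM). Others were Vipr2, the second receptor for vasoactive intestinal peptide (2.72 and 2.01 TPM), and the lysophosphatidic acid receptor gene Lpar1 (4.58 and 1.76 TPM). The neuropeptide Y receptor gene Npy1r (3.14 and 1.40 TPM) lay there too. Vipr1 had the higher value than Vipr2 in each library, without a test. In all, 20 of the 58 reached 1 TPM in both libraries, and 10 had 0 counts in both, among them the neuromedin B receptor gene Nmbr, the neurotensin receptor gene Ntsr1 and the histamine receptor gene Hrh2.

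**Figure D2:**
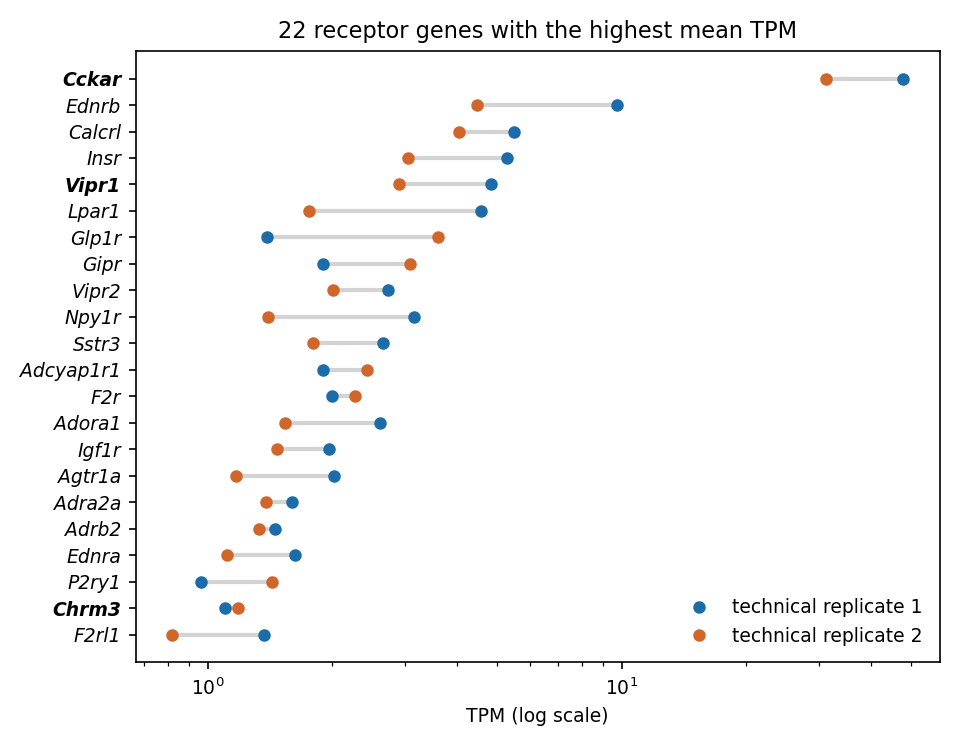
TPM (log axis) of the 22 receptor genes with the highest mean TPM among 58, 1 point per technical replicate joined by a grey bar, with Cckar, Vipr1 and Chrm3 in bold. Cckar lies right of every other receptor in both libraries, Vipr1 ranks 5 by mean and Chrm3 lies at 1.10 and 1.18 TPM near the foot of the plot.

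The ligand genes ranged from no counts to several TPM in the organ itself. Cck, Gast, Sct and Adcyap1, which encode cholecystokinin, gastrin, secretin and PACAP, had 0 counts in both libraries, where 3 counts would be 0.318 and 0.306 CPM. Vip, which encodes vasoactive intestinal peptide and is made by neurons of the gut and pancreas, was the most abundant of the 14 ligand and cholinergic genes at 6.46 and 5.02 TPM, beside 4.82 and 2.90 TPM for its receptor Vipr1. The neuromedin B gene Nmb followed at 5.56 and 4.74 TPM. Of the genes that make, load and take back acetylcholine's parts, Chat held 4 and 2 counts, Slc18a3 1 and 2 counts and Slc5a7 18 and 7 counts, while the esterase genes Bche and Ache stood at 1.82 and 1.18 TPM and at 0.60 and 1.71 TPM. Of the 14 genes, 3 reached 1 TPM in both libraries.

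Genes of the steps below the receptors were counted in the same way, where 46.4% of protein-coding genes reached 1 TPM in both libraries. Of 19 Gq effector genes, 15 reached 1 TPM in both libraries, among them the phospholipase C gene Plcb4 (14.7 and 7.38 TPM) and the protein kinase C genes Prkcd (8.99 and 7.68 TPM) and Prkcz (4.10 and 4.41 TPM). All 6 genes of inositol trisphosphate receptors and calcium pumps did, with the endoplasmic reticulum pump genes Atp2a2 and Atp2a3 at 35.4 and 25.2 TPM and at 15.7 and 18.5 TPM, the plasma membrane pump gene Atp2b1 at 5.44 and 3.20 TPM and the receptor gene Itpr1 at 3.20 and 2.70 TPM. In the cyclic AMP branch 16 of 24 did, led by the protein kinase A genes Prkar1a (19.6 and 21.2 TPM) and Prkaca (12.7 and 7.44 TPM), the phosphodiesterase gene Pde4a (16.5 and 7.80 TPM) and the adenylyl cyclase gene Adcy6 (8.80 and 10.3 TPM). Set against these, Cckar lay above Atp2a2, Plcb4 and Prkar1a in each library.

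The libraries themselves were compared gene by gene, to learn which of the 8 values differ between them. This test compares the libraries, not conditions: counts were scaled by the trimmed mean of M-values (TMM), and each gene with a mean of 10 or more counts was tested with an exact binomial test, two-sided, adjusted by Benjamini-Hochberg over 12452 genes. A call needed a log2 ratio of at least 1 in size besides an adjusted p below 0.05. With 1 library a side, the test holds counting error only. Of the 8 genes 5 had the counts to be tested, and Sctr, Cckbr and Chrm1 did not. Gna11 was called higher in replicate 2 and none was called lower, where 12.3% of all tested genes were called, 8.31% higher and 4.0% lower. Read against this background, 1 call among 5 genes is no result about the receptors and their G proteins as a group.

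Gna11 was 2.09-fold higher in replicate 2, a log2 ratio of 1.07 (0.76 to 1.38, adjusted p = 7.76e-11 in the exact binomial test). Cckar had a log2 ratio of −0.34 (−0.48 to −0.20, exact binomial adjusted p = 8.85e-06), which is under the size threshold. The ratios of Vipr1 (−0.30, from −0.68 to 0.07, exact adjusted p = 0.219), Gnaq (−0.11, from −0.39 to 0.17, p = 0.593) and Chrm3 (0.29, from −0.41 to 0.98, p = 0.566) had intervals that include 0. The median of all tested genes was −0.01, so Gna11 stood above the typical gene and Cckar below it. With library totals in place of TMM this median was −0.55, and every ratio dropped with it: Gna11 to 0.53, no longer called, Cckar to −0.88, Vipr1 to −0.83, Gnaq to −0.65 and Chrm3 to −0.24, where its sign turned. Chrm3 therefore has no direction that holds over these scalings.

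**Figure D3:**
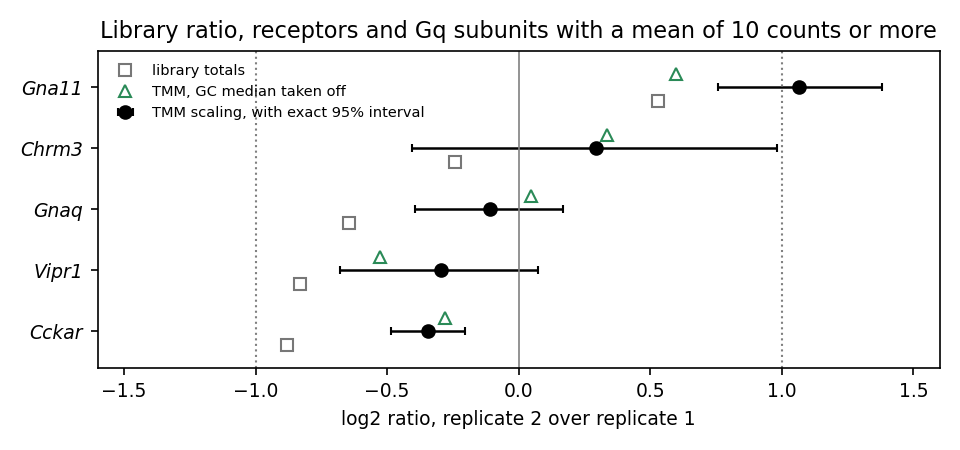
Log2 ratio of replicate 2 over replicate 1 for the 5 genes with a mean of 10 or more counts: filled circles with exact 95% intervals use TMM scaling, squares library totals, and triangles TMM scaling less the median of genes of like GC content. Only the Gna11 circle, at 1.07, passes the dotted threshold at 1, and its square (0.53) and triangle (0.60) do not.

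Base composition moved with the library ratio over all tested genes. The median log2 ratio was −0.42 for genes whose main transcript has under 40% GC, −0.14 from 45 to 50%, 0.42 from 55 to 60% and 1.02 at 60% or more, and 18.8% of genes from 55 to 60% GC were called higher. Gna11 has 57.2% GC and Gnaq 46.9%. The tested genes nearest to Gna11 in GC, 250 on either side, had a median of 0.47 and those nearest to Gnaq −0.16. With these medians taken off, an alternative chosen after seeing the data, Gna11 had a log2 ratio of 0.60 (exact binomial adjusted p = 0.000947) and was no longer called, and Gnaq stood at 0.05.

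The distance between the pair does not depend on the scaling of the libraries. Gna11 exceeded Gnaq by 1.18 on the log2 scale in the change from replicate 1 to replicate 2, and by 0.55 once the GC medians were taken off. The GC content of the pair differs by 10.3 percentage points. Cckar has 49.8% GC, where the local median was −0.06, and its ratio of −0.34 became −0.28. Vipr1, at 55.2% GC with a local median of 0.23, went the other way, from −0.30 to −0.53 (exact binomial adjusted p = 0.0192), and it too stayed under the size threshold. What part GC content has in these ratios was not tested beyond this.

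**Figure D4:**
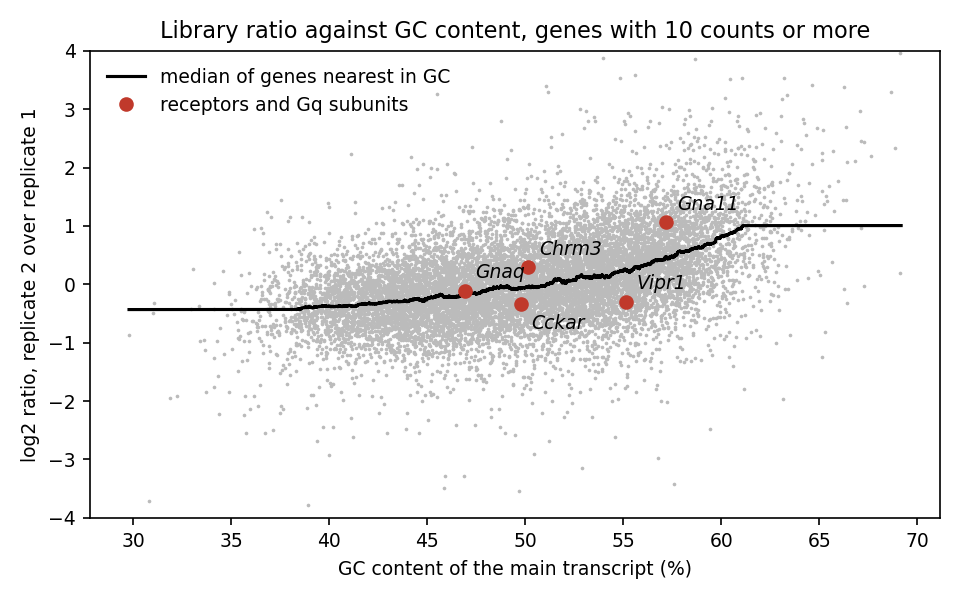
Log2 ratio of replicate 2 over replicate 1 (TMM scaling) against GC content of the main transcript in percent, 1 grey point for each of 12287 genes with a GC value and 10 or more mean counts (37 more lie beyond the axis), with the 5 tested genes in red. The black line, the median of genes nearest in GC, climbs to the right, and Gna11 lies above its rising part, at 57.2% GC and a ratio of 1.07.

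Among the 167 genes of the other signalling lists 114 were tested, and 6 were called higher and 1 lower in replicate 2 (6.14%), beside 12.3% of all tested genes. With library totals 27 of the 114 were called (23.7%), beside 2945 of 12452 over all genes, so how the lists compare with all genes depends on the scaling. With TMM scaling the genes called were Glp1r, Gnb2, Gnb5, Adcy3, Adcy5 and Ramp1 on the higher side and Gng2 on the lower. Of these, Adcy3, Adcy5 and Ramp1 were not called with library totals. After the GC medians were taken off, Adcy5 (log2 ratio 0.34) and Gng2 (−0.92) were not called. In that setting 6 of the 114 were called (5.26%), beside 1026 of 12324 over all genes. The beta subunit gene Gnb2, a partner of Gnaq and Gna11, held 225 and 471 counts and a log2 ratio of 1.55 (exact binomial adjusted p = 3.38e-41), which was 1.07 after the GC medians were taken off.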

How the data were processed

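Per the deposited README files, values rest on mm10 and GENCODE M4. For the aligner, quantifier and strand setting: not given in the sources used here. The deposited tables hold, per the file headers, expected counts, TPM and FPKM for each gene and transcript, posterior means and SDs, and the percent of each isoform in its gene. FPKM and posterior means served as alternatives. Of 69691 rows, 26345 that name no gene held 0 counts and were left out.

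Symbols, coordinates, coding sequences and GC content came from GENCODE M21 on GRCm38, which matched 42462 of 43346 genes. Of 21 transcripts of the members 19 have the same length in both releases, and those printed for Cckar and Cckbr do not. Expected counts were rounded and scaled with TMM (edgeR 4.0.16, R 4.3.3). With 1 library a side edgeR's quasi-likelihood test has no residual degrees of freedom, so scipy 1.17.1 gave exact binomial tests with 0.5 added to counts for ratios. DESeq2 1.42.0 gave alternative size factors. The test was tried on simulated data. Python 3.11.15, pandas 2.3.3, numpy 2.4.6, biopython 1.88 and matplotlib 3.10.9 were used.

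The members and lists were chosen with earlier results of these data known. Named are all 8 members, and of each list the 4 highest by mean TPM and the genes called, except 1 gene that is not reported here. Genes at 0 counts in both libraries could be named, and some were. Chrm2, Chrm4, Gna14, Gna15, Chat, Slc18a3 and Slc5a7 were added after their values were seen. Amy2a5 and the liver markers were also named after their values were seen.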

Additional observations from a re-analysis of the deposited data

How the results depend on the processing

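Of the 5 genes tested between libraries, none was called with library totals and none after the GC medians were taken off (0 in each, against 1), since Gna11 fell under the size threshold. The ratio of Gna11 was called under the 6 other settings. Over all genes, 1533 calls became 2945 with library totals (342 higher, 2603 lower, so 11.6% higher in place of 67.5%) and 649 with a minimum mean of 50 counts, where 7729 genes were tested. After the GC medians were taken off there were 1026 calls, 57.4% of them higher. The sign turned for Chrm3 (−0.24 with library totals) and for Gnaq (0.047 after the GC medians). Leaving out a library put the TPM ratio of Cckar to Cckbr between 109 and 521, of Chrm3 to Chrm1 between 5.0 and 11.8, of Sctr to Vipr1 between 0.0851 and 0.259, and of Gnaq to Gna11 between 0.517 and 1.07. It leaves no comparison between libraries. The count of genes at 1 TPM in both libraries stayed at 5 with posterior means and was 4 with FPKM or a threshold of 2 TPM, each without Chrm3. Of 24 levels recomputed with posterior means, FPKM, or without mitochondrial and 5 other genes, 12 stayed within 1 SD. No paired analysis was possible because the 2 libraries form 1 group. Depth limits Sctr, Cckbr and Chrm1, each with at most 12 counts a library.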

Other observations

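The beta and gamma subunits, which form the rest of the G protein trimer, were present in number: 11 of 17 genes reached 1 TPM in both libraries and 1, Gngt1, had 0 counts in both. Gnb2 led by mean with 43.6 and 71.0 TPM in replicates 1 and 2, followed by the gamma subunit gene Gng5 (47.3 and 37.7 TPM), by Gnb1 (52.2 and 22.1 TPM) and by Gng12 (18.5 and 10.8 TPM). Gnb1 was the higher of the beta genes in replicate 1 and Gnb2 in replicate 2.

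Of 21 genes that regulate receptors and G proteins, 17 reached 1 TPM in both libraries, with medians of 4.15 and 4.48 TPM. The highest were Rgs5, a pericyte gene that speeds the turn-off of Gq and Gi subunits (46.5 and 21.95 TPM), Ramp2, the partner of Calcrl (37.2 and 16.4 TPM), the arrestin gene Arrb2 (21.97 and 15.7 TPM) and the receptor kinase gene Grk2 (8.49 and 18.4 TPM). Rgs5 is also among the smooth muscle and pericyte markers used here, whose summed level was 224 and 145 TPM.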
